A study of Mus musculus with 4 samples.

Results

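The nuclear genes of oxidative phosphorylation were examined in single cells of 4 mouse medulloblastomas. Members were all rows of the 4 count tables whose symbols named nuclear-encoded subunits of complexes I to V, plus cytochrome c. That rule took 79 of 15002 rows: 36 for complex I, 4 for complex II, 8 for complex III, 13 for complex IV, 17 for complex V and Cycs alone for cytochrome c. Rows for assembly factors, for Ndufa4l2 and for pseudogenes were left out by the rule. The symbols also took in a few genes that are not subunits of the enzyme, namely Atp5s, Atp5sl, Atp5l2 and Cox7a2l, and they missed the subunits Ndufab1 and Cyc1.

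The mice were untreated and 16 days old (P16), and every animal carried hGFAP-Cre, SmoM2, Prkaa1 fl/fl and Prkaa2 fl/fl. Tissue was the tumour or part of the cerebellum, dissociated to single cells. SmoM2 is an active form of Smoothened that drives Sonic hedgehog (SHH) signalling, and Prkaa1 and Prkaa2 encode the catalytic part of the energy sensor AMPK (AMP-activated protein kinase). The human GFAP promoter is known to drive Cre in neural stem and progenitor cells of several lineages, not only in the granule cell lineage from which SHH medulloblastoma arises. The samples form 1 group, so no comparison by genotype or treatment was made, and what follows compares cell states within AMPK-deleted tumours.

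Oxidative phosphorylation is the mitochondrial process that turns the energy of nutrients into ATP. Complex I (NADH dehydrogenase) and complex II (succinate dehydrogenase, also an enzyme of the citric acid cycle) pass electrons to quinone, complex III passes them on to cytochrome c, and complex IV hands them to oxygen. Complexes I, III and IV pump protons, and complex V, the ATP synthase, uses the gradient to make ATP. Most subunits are encoded in the nucleus and a few core ones in mitochondrial DNA, so the enzymes need products of both genomes. Granule cell progenitors and SHH medulloblastoma cells are known for high aerobic glycolysis, and neurons for a high demand for respiration.

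Nuclear respiratory factor 1 (NRF1) and ETS-family factors such as GABPA are known regulators of many of these genes, so promoter windows were searched for their core letters. The search used GCGCA and GCGC with any 1 base between them for NRF1 and CCGGAAG for ETS, on both strands, in windows from 250 bases before to 50 bases after each annotated start (RefSeq, GRCm38.p6). Windows were found for 64 of the 79 members. The NRF1 letters stood in 16 of these members (25%), against 11.6% of the genes of the count tables with a window and 5.19% of all genes with one. The ETS letters also stood in 16 members (25%), against 19.8% and 9.93%. Below are the 120 bases before the start for 3 members whose counts differed between cell states and for 3 members that carry the NRF1 letters, with matches to either motif in capitals.
Ndufa12, chr10:94198915-94199034, plus strand: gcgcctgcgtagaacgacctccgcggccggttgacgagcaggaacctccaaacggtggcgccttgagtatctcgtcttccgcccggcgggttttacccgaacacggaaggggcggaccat
Atp5e, chr2:174464102-174464221, minus strand: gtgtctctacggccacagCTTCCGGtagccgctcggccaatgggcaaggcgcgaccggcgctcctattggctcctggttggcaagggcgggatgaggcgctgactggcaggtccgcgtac
Atp5g1, chr11:96075632-96075751, minus strand: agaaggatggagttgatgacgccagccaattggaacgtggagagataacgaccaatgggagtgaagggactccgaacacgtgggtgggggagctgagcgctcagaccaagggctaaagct
Sdha, chr13:74350241-74350360, minus strand: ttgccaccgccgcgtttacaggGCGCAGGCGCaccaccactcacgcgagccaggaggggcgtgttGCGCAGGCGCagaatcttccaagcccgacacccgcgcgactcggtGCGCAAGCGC
Ndufb4, chr16:37654369-37654488, minus strand: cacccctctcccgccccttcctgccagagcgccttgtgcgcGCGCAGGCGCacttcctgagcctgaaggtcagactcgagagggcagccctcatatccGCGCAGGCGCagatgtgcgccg
Cox6a1, chr5:115348959-115349078, minus strand: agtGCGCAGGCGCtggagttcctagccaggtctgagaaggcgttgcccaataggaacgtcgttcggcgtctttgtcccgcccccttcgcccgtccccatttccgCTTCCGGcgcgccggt
Of the 10 members that differed between cell states in a comparison reported here, 8 had a window, 3 of these held the ETS letters and 0 the NRF1 letters. A match is a description of the letters and not of a bound site.

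Cells were kept at 500 or more unique molecular identifiers (UMIs, each a counted RNA molecule), which left 766, 807, 566 and 1083 cells in tumours 1 to 4 with medians of 826.5, 749, 806.5 and 972 UMIs. Those cells shared 0 barcodes between tumours. The libraries fell into 2 pairs: expression profiles correlated with r of 0.95 between tumours 1 and 2 and 0.94 between tumours 3 and 4, against 0.75 to 0.85 across the pairs (10775 genes). The share of UMIs from mitochondrially encoded features was 12.1%, 12.7%, 2.68% and 2.13% in tumours 1 to 4. The labels name no batch that matches the pairs. Prkaa1 had 16, 4, 3 and 5 UMIs and Prkaa2 had 10, 5, 10 and 14 in tumours 1 to 4, but counts at the 3′ end cannot show whether floxed exons were lost.

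Single cells were placed by marker UMIs per 1000 UMIs of the cell, with no member among the markers. The gates held 780 G2/M cells (mitosis genes such as Top2a and Cenpf), 557 S-phase cells (replication genes such as Mcm2 and Pcna), 180 non-dividing cells with SHH-responsive progenitor markers (such as Gli1 and Ptch1), 452 early neuronal cells (such as Dcx and Tubb3) and 230 late neuronal cells (with synaptic genes such as Snap25 and Syt1). A gate is a range of marker levels and not a cell type. Of all cells, 206 lay within 1 UMI per 1000 of the dividing limit and 293 within that distance of the neuronal one. Late cells numbered 95, 43, 45 and 47 and non-dividing cells only 23, 27, 52 and 78 in tumours 1 to 4.

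Summed over each complex, the members' level differed more between the library pairs than between dividing and neuronal cells of a tumour. Levels are UMIs scaled to 1000000 UMIs (CPM) of the cells summed, here all gated cells of a tumour. Complex I stood at 3282, 3780, 9391 and 10194 CPM in tumours 1 to 4. Complex II stood at 274, 262, 543 and 532 CPM. Complex III stood at 662, 906, 2259 and 2359 CPM. In each of these complexes tumours 3 and 4 were both above tumours 1 and 2, with no overlap. Complex IV stood at 3540, 3434, 5304 and 6337 CPM. Complex V stood at 2154, 2778, 6249 and 6930 CPM. Cycs, the small electron carrier between complexes III and IV, had only 2, 4, 32 and 56 UMIs, or 4.13, 10.1, 75.9 and 59.3 CPM. The mean of tumours 3 and 4 over that of tumours 1 and 2 was 2.77 for complex I, 2.00 for II, 2.95 for III, 1.67 for IV and 2.67 for V, so complex IV differed least. The protein of Ndufa4 is now assigned to complex IV, and with Ndufa4 moved there the ratios were 2.77 for complex I and 1.76 for complex IV.

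The difference between the pairs went the other way for the subunits encoded in mitochondrial DNA. The 7 of these features with counts summed to 21356, 19711, 9519 and 9142 CPM, a ratio of 0.454. Cytosolic ribosomal protein genes, another set of short and abundant transcripts, summed to 18150, 23253, 49896 and 55349 CPM, a ratio of 2.54. Per UMI of nuclear complex I members, mitochondrially encoded complex I subunits gave 5.25, 4.27, 0.68 and 0.62 UMIs in G2/M cells and 3.80, 2.88, 0.62 and 0.60 in early neuronal cells. In both states that quotient was several times higher in tumours 1 and 2 than in tumours 3 and 4. Markers of other cell types also followed the library pairs. The sum of 9 astrocyte or radial glia markers in G2/M cells was 652, 855, 352 and 438 CPM in tumours 1 to 4 and in early neuronal cells 747, 843, 295 and 386 CPM, and it was higher in both tumours 1 and 2 than in both tumours 3 and 4 in all 5 gates. Of these markers, 3 to 7 had UMIs in each gate of tumours 1 and 2, where Gfap and Aqp4 were at 0, and 3 to 8 in each gate of tumours 3 and 4. The 4 red blood cell markers, hemoglobin genes, were also higher in both tumours 1 and 2 in all 5 gates, for G2/M cells at 48.7, 166.7, 34.5 and 25.3 CPM. Markers of microglia or macrophages (11 genes) were so in 4 of 5 gates, those of mural cells or fibroblasts in 3, of the oligodendrocyte lineage in 1 and of endothelial cells in 0. The part of RNA from these cell types in the difference between the pairs was not tested.

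Single members mostly followed the sums. Of 72 members with 100 or more UMIs, 67 (93.1%) were higher in both tumours 3 and 4 than in both tumours 1 and 2, against 44.6% of 4579 nuclear genes with as many UMIs, and 2 (2.78%) were lower, against 33.9%. The median ratio was 2.75 for the members and 1.12 for all these genes. With 2 libraries a side no test was made, and the library pair and the mice cannot be told apart. Members were also short: their median transcript length was 655 bases in GENCODE M21, against 2110 for all genes with a length. Length and the log2 ratio correlated with Spearman's rho of -0.33 over the 72 members and -0.49 over 4270 genes, across genes that are not independent replicates. Among genes up to 750 bases the median log2 ratio was 1.57 for 41 members and 0.97 for all 456 genes. The part of transcript length or of the mitochondrial share in the difference was not tested.

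**Figure D1:**
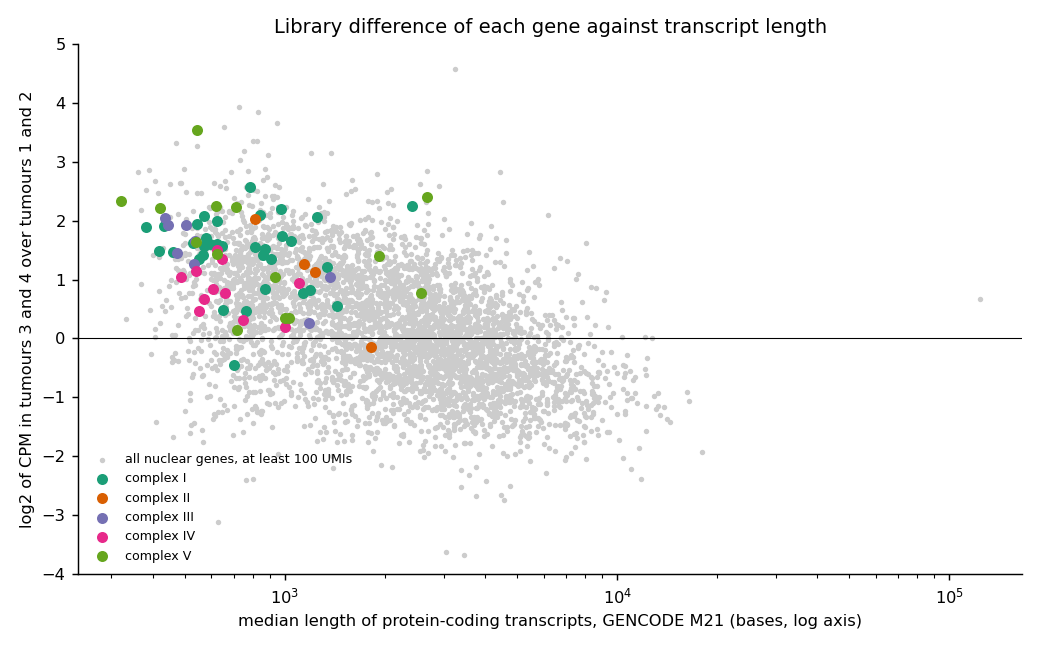
Each point is a gene: the x axis is its median protein-coding transcript length in bases (log axis) and the y axis the log2 of its summed CPM in tumours 3 and 4 over that in tumours 1 and 2. Members (coloured by complex) lie mostly at short lengths and above 0, and 3 of 4269 genes fall outside the plotted range.

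The exceptions and extremes below were picked after their values were seen. Atp5l, the g subunit in the membrane part of ATP synthase, was at 22.7, 22.7, 284.8 and 241.5 CPM in tumours 1 to 4, a ratio of 11.6. The values of tumours 1 and 2 rest on 11 and 9 UMIs. Ndufb9, an accessory subunit of complex I, was at 501, 381, 311 and 335 CPM, a ratio of 0.73, and was lower in both tumours 3 and 4. Sdha, the flavoprotein that binds succinate in complex II, was at 94.9, 88.3, 80.7 and 85.8 CPM, a ratio of 0.91, and the 4 tumours lay close together. The other complex II genes did not share that pattern: Sdhc, a membrane anchor, was at 18.6, 25.2, 78.3 and 100.6 CPM. Among F1 head subunits of ATP synthase the ratio ran from 1.27 for Atp5c1 to 4.64 for Atp5e. Subunits of 1 enzyme thus differed in how far the library pairs stood apart.

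The quotient of dividing over neuronal cells was below 1 in tumours 1 and 2 and above 1 in tumours 3 and 4 for complexes I, III and IV, and below 1 in tumour 1 alone for complexes II and V, though not every interval excluded 1. For complex I, dividing cells (G2/M and S together) stood at 3158, 3704, 9744 and 10437 CPM in tumours 1 to 4 and neuronal cells (early and late together) at 3476, 3836, 8580 and 9147 CPM. The quotient was 0.91 (95% interval 0.82 to 1.01), 0.97 (0.85 to 1.09), 1.14 (1.06 to 1.22) and 1.14 (1.08 to 1.20), with intervals that cover counting error only. In tumours 1 and 2 both intervals included 1, so no direction was resolved there. For complex III the quotients were 0.79, 0.87, 1.30 and 1.25, and for complex IV they were 0.85, 0.90, 1.10 and 1.08. For complex V they were 0.91, 1.04, 1.28 and 1.17, and for complex II, with far fewer UMIs, 0.93, 1.08, 1.07 and 1.30. Tumour 1 excluded 1 for complex III (0.624 to 0.995) and complex IV (0.772 to 0.945). The intervals included 1 in tumour 2 for all 5 complexes, in tumour 1 for complexes I, II and V, and in tumour 3 for complexes II and IV. Over all members the quotient was 0.88 (0.83 to 0.94), 0.95 (0.89 to 1.02), 1.18 (1.12 to 1.23) and 1.15 (1.11 to 1.18). Ribosomal protein genes were higher in dividing cells of every tumour, with quotients of 1.23, 1.20, 1.88 and 1.70. So were the mitochondrially encoded subunits, with 1.24, 1.32, 1.21 and 1.10. The difference between the library pairs in these quotients was not tested.

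**Figure D2:**
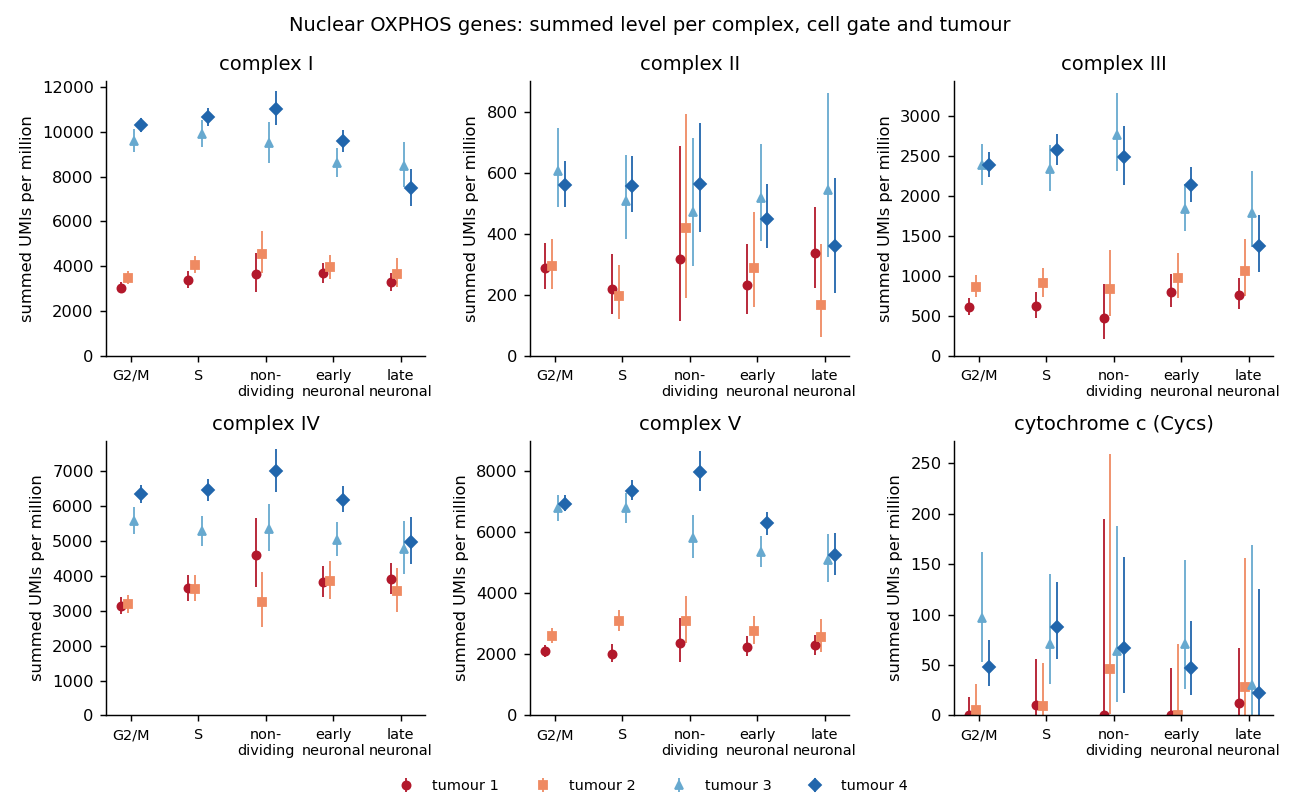
Summed CPM of each complex (y axes from 0) in the 5 cell gates (x axis), 1 point per tumour with its exact Poisson 95% interval for counting error. Tumours 3 and 4 lie above tumours 1 and 2 in every gate of complexes I, III, IV and V, for complex I at 7483 to 11037 CPM against 3038 to 4564 CPM.

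Within tumours 3 and 4 the late neuronal gate was the lowest for complexes I, III, IV and V. Complex I in tumour 4 stood at 10287 CPM in G2/M cells, 10665 in S phase, 11037 in non-dividing cells, 9586 in early and 7483 in late neuronal cells. In tumour 3 the same gates stood at 9610, 9916, 9496, 8615 and 8489 CPM, so late and early cells hardly differed there. In tumour 1 they stood at 3038, 3405, 3642, 3681 and 3283 CPM, and in tumour 2 at 3489, 4066, 4564, 3947 and 3673 CPM. Neither of those tumours had its lowest complex I level in late cells. Over the 4 tumours the mean of complex I was 6606 ± 3874 CPM (SD, n = 4) in G2/M cells and 5732 ± 2639 in late cells. The gap was not of 1 sign within tumours, since G2/M cells were below late cells in tumours 1 and 2 and above them in tumours 3 and 4.

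Single members were tested on counts summed per tumour and gate, with the tumour as a block, in a fit of all genes (edgeR quasi-likelihood test, Benjamini-Hochberg adjustment over all genes tested). Of the 79 members, 66 passed the filter on low counts. The 13 that did not were Cycs, Sdha, Sdhc, Sdhd, Ndufa9, Ndufs1, Ndufs5, Ndufv1, Cox6b2, Cox7a1, Atp5s, Atp5sl and Atp5l2. Between dividing and neuronal cells 9 of the 66 were higher in dividing cells and 0 lower in edgeR at an adjusted p under 0.05, and 12 had an unadjusted p under 0.05. That is 13.6% of the members, against 24.8% of 3146 genes called higher and 22.7% called lower. The members' share thus lay below the background, a difference that was not tested. DESeq2 called 8. The members' median log2 fold was 0.14, against 0.05 over all genes tested. For 60 of the 66 members the 95% interval of the fold lay within 2-fold in either direction, against 1569 of 3146 genes. With tumours 3 and 4 alone 16 of 71 members were called, all 9 included, against 42.1% of all genes. Of the 16, 15 were higher in dividing cells (21.1%, against 21.7% of 3330 genes) and 1 was lower (1.41%, against 20.4%), so the share called higher lay near the background. With tumours 1 and 2 alone edgeR called 0 of 45 members, with 3 at an unadjusted p under 0.05, all lower in dividing cells, against 27.8% of 2489 genes called, 14.1% higher and 13.8% lower. The difference between the pairs was not tested. Without tumour 4 the count was 2, Ndufa12 and Atp5g1, and without the tumour as a block it was 0. Dividing cells also had deeper libraries, and with each cell thinned to 500 UMIs 5 of the 9 calls held.

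**Figure D3:**
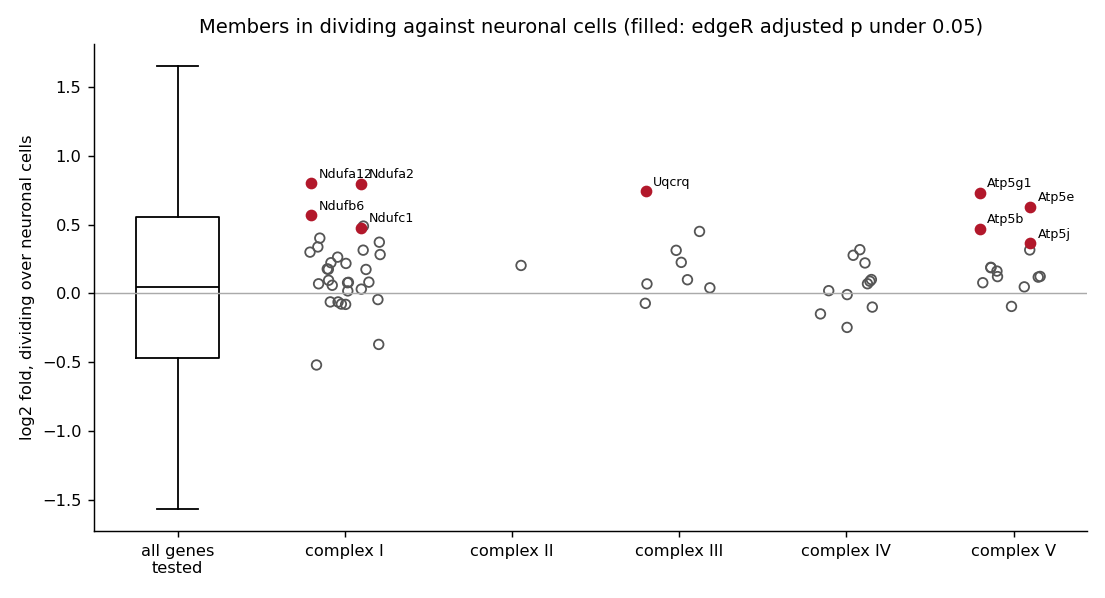
The y axis is the log2 fold of dividing over neuronal cells, with 1 point per member that was tested, by complex, and filled points at an edgeR adjusted p under 0.05. The box and whiskers give the quartiles and the 5th and 95th percentiles of all 3146 genes (-1.57 to 1.65), and the members lie between -0.52 and 0.80.

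In complex I, 4 of 32 tested members were called higher in dividing cells (12.5%, against 24.8% of all genes). All 4 were accessory subunits, as were 27 of the 32 tested. The accessory subunits numbered 29, with a median log2 fold of 0.17. The 7 nuclear core subunits that carry the electron and quinone path gave 0 calls among 5 tested, with log2 folds from -0.37 to 0.40. Ndufa12, an accessory subunit at the junction of the peripheral arm, stood at 150.7, 142.9, 704.3 and 665.4 CPM in dividing cells of tumours 1 to 4 and at 87.2, 182.1, 382.3 and 418.1 CPM in neuronal cells. It was higher in dividing cells in 3 of 4 tumours, tumour 2 being the exception. Its log2 fold was 0.80 (SE 0.17, edgeR adjusted p = 6.3e-05). Ndufa2, an accessory subunit of the peripheral arm, stood at 140.9, 122.0, 377.5 and 497.9 CPM in dividing and 137.0, 125.2, 203.9 and 300.7 CPM in neuronal cells. In tumours 1 and 2 the cell states were nearly equal, and the gap lay in tumours 3 and 4. Its log2 fold was 0.80 (SE 0.19, edgeR adjusted p = 0.00037).

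Ndufc1, a small subunit of the membrane arm, stood at 85.2, 135.9, 692.7 and 689.7 CPM in dividing and 68.5, 125.2, 552.1 and 488.6 CPM in neuronal cells. It was higher in dividing cells of all 4 tumours, with a log2 fold of 0.48 (SE 0.17, edgeR adjusted p = 0.017). Ndufb6, also of the membrane arm, stood at 36.0, 69.7, 268.5 and 231.4 CPM in dividing and 49.8, 34.1, 195.4 and 136.2 CPM in neuronal cells. Tumour 1 went the other way, on 21 UMIs over all its gated cells. The log2 fold was 0.57 (SE 0.25), with an edgeR adjusted p of 0.048 next to the threshold. Ndufa4, the member of this set with most UMIs, did not pass the test: it stood at 275, 307, 774 and 865 CPM in dividing and 349, 319, 764 and 1038 CPM in neuronal cells (log2 fold -0.06, SE 0.13, edgeR adjusted p = 0.72). Ndufv3, a small accessory subunit named here for its value, had the lowest fold of all members at -0.52 (SE 0.25, edgeR adjusted p = 0.075) and was the 1 member called lower in dividing cells with tumours 3 and 4 alone (-0.68).

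In complex II only Sdhb, the iron-sulfur subunit, passed the filter. It stood at 117.9, 97.6, 350.2 and 286.2 CPM in dividing and 162.0, 91.1, 331.3 and 178.5 CPM in neuronal cells. The fold was not called (log2 fold 0.20, 95% interval -0.20 to 0.61, edgeR adjusted p = 0.43). In complex III 1 of 8 members was called higher in dividing cells (12.5%, against 24.8% of all genes). Uqcrq, a small subunit that binds near the cytochrome b core, stood at 104.8, 125.4, 486.4 and 435.5 CPM in dividing and 93.4, 125.2, 305.8 and 253.7 CPM in neuronal cells. Tumour 2 showed almost no gap and tumours 3 and 4 a clear one (log2 fold 0.74, SE 0.20, edgeR adjusted p = 0.0014). Uqcr11 and Uqcrh, small subunits with more UMIs, had log2 folds of 0.10 (SE 0.19) and 0.07 (SE 0.17) and were not called. With tumours 3 and 4 alone Uqcr11 (log2 fold 0.50) and Uqcr10 (0.83), another small subunit, were called higher in dividing cells, while with tumours 1 and 2 alone their log2 folds were -0.63 and -0.63 (edgeR adjusted p = 0.17 and 0.28) and not called. Over all tumours Uqcr10 had a log2 fold of 0.45 (edgeR adjusted p = 0.059).

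In complex IV, cytochrome c oxidase, 0 of 11 tested members were called between dividing and neuronal cells. Over all 3146 genes 24.8% were called higher and 22.7% lower. The log2 folds of the 11 lay between -0.25 and 0.32. Cox6a1 and Cox4i1, regulatory subunits, are the broadly expressed isoforms of their pairs. Cox6a1 stood at 567, 575, 930 and 982 CPM in dividing and 561, 615, 782 and 958 CPM in neuronal cells (log2 fold 0.10, 95% interval -0.14 to 0.34). Cox4i1 stood at 583, 624, 677 and 848 CPM in dividing and 685.2, 751.2, 722.0 and 916.2 CPM in neuronal cells. It was lower in dividing cells in all 4 tumours, but the fold of -0.10 (95% interval -0.34 to 0.14, edgeR adjusted p = 0.51) was not called. Cox7a2, a small subunit, had a log2 fold of 0.22 (SE 0.14, edgeR adjusted p = 0.18), Cox6b1 one of -0.25 (SE 0.14, edgeR adjusted p = 0.15) and Cox8a one of 0.07 (SE 0.14, edgeR adjusted p = 0.71). With tumours 3 and 4 alone Cox7a2 (log2 fold 0.40) and Cox5a (0.52) were called higher in dividing cells, while with tumours 1 and 2 alone their log2 folds were 0.04 and -0.21 (edgeR adjusted p = 0.92 and 0.66). The tissue-restricted isoforms were near absent: Cox6b2, of testis, had 4 UMIs and Cox7a1, of heart and muscle, had 1 UMI over all gated cells. The isoforms Cox4i2, Cox6a2, Cox8b and Cox8c had no row under these symbols in the counts.

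In complex V 4 of 14 tested members were called higher in dividing cells (28.6%), near the 24.8% of all genes. Atp5b, the catalytic β subunit of the F1 head, stood at 268.6, 317.1, 661.5 and 845.0 CPM in dividing and 193.1, 250.4, 509.7 and 535.6 CPM in neuronal cells. It was higher in dividing cells of all 4 tumours by a log2 fold of 0.47 (SE 0.15, edgeR adjusted p = 0.0070). Atp5e, the small ε subunit at the foot of the head, stood at 114.7, 125.4, 614.8 and 592.3 CPM in dividing and 68.5, 159.4, 424.7 and 441.6 CPM in neuronal cells. Tumour 2 was the exception in direction (log2 fold 0.63, SE 0.18, edgeR adjusted p = 0.0022). Atp5j, a peripheral stalk subunit, stood at 154, 254, 1062 and 964 CPM in dividing and 149.5, 273.2, 662.6 and 869.2 CPM in neuronal cells. The gap was large in tumour 3 alone (log2 fold 0.37, SE 0.15, edgeR adjusted p = 0.038). Atp5c1, the γ subunit that turns in the head, was not called (log2 fold 0.19, SE 0.14, edgeR adjusted p = 0.27).

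The c-ring genes of ATP synthase parted. Atp5g1 and Atp5g3 encode c subunits that are identical once the import signal is removed. Atp5g1 stood at 39.3, 94.1, 330.8 and 335.0 CPM in dividing and 18.7, 56.9, 135.9 and 272.5 CPM in neuronal cells, higher in dividing cells of all 4 tumours (log2 fold 0.73, SE 0.23, edgeR adjusted p = 0.0053). The neuronal values of 18.7 and 56.9 CPM rest on very few UMIs, so the direction in those tumours is weakly supported. Atp5g3 stood at 147.4, 212.5, 190.7 and 199.5 CPM in dividing and 149.5, 204.9, 203.9 and 211.4 CPM in neuronal cells, with a log2 fold of -0.09 (95% interval -0.48 to 0.29, edgeR adjusted p = 0.71). Between the library pairs they differed as well, with ratios of 5.30 for Atp5g1 and 1.10 for Atp5g3. The difference between the paralogs was not tested, and how reads that fit both were assigned is not given in the sources used here. Atp5g2 had no row under that symbol in the counts.

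**Figure D4:**
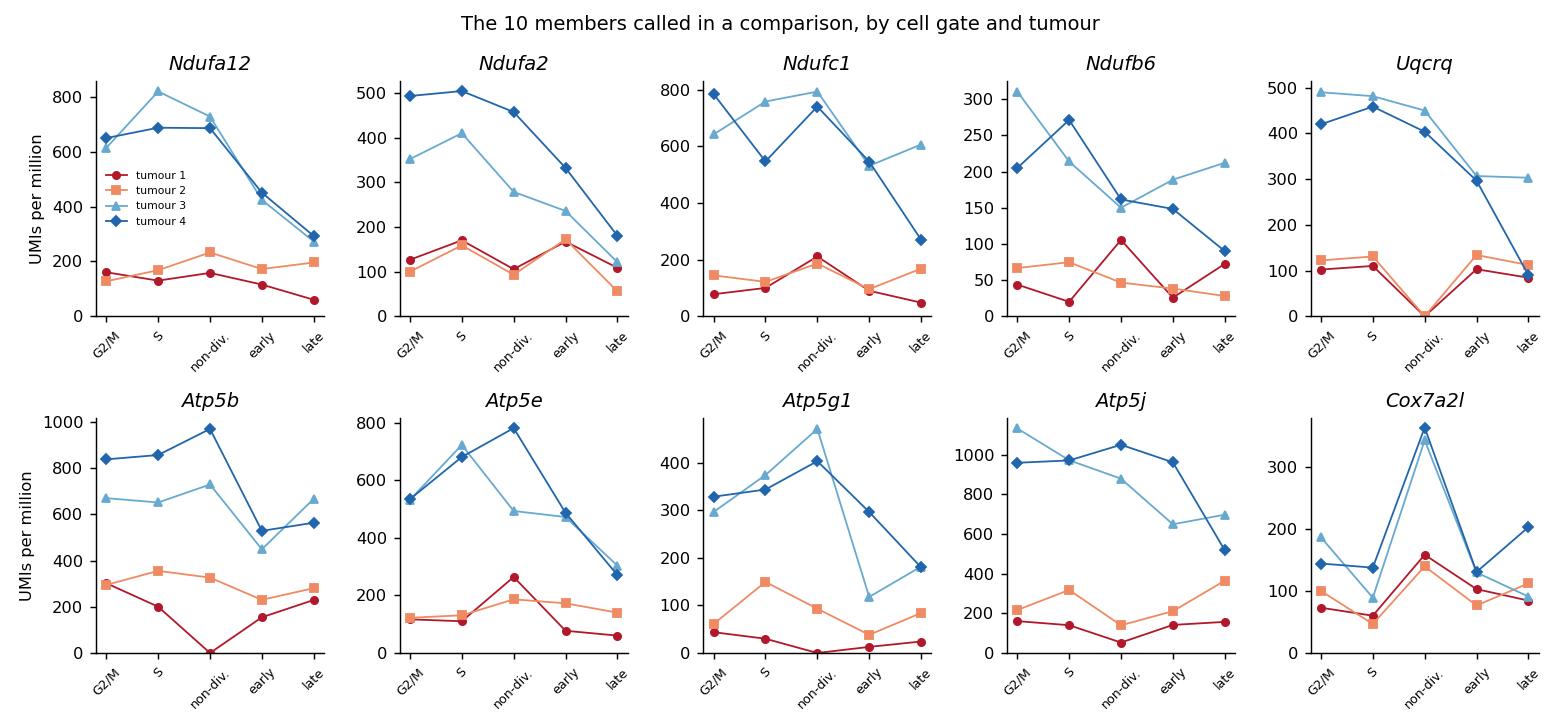
CPM (y axes from 0) of the 10 members called in a comparison, by cell gate (x axis), 1 line per tumour that joins its 5 gates. Most members lie higher in G2/M and S-phase cells than in late neuronal cells in tumours 3 and 4, and Cox7a2l peaks in non-dividing cells of all 4 tumours.

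The share of members with the higher level in dividing cells, among those with 20 or more UMIs, was 27.4% (17 of 62) in tumour 1, 46.2% (30 of 65) in tumour 2, 71.2% (52 of 73) in tumour 3 and 73.0% (54 of 74) in tumour 4. Over all genes that share was 50.8%, 52.1%, 52.4% and 51.2%. Members therefore leaned toward neuronal cells in tumour 1 and toward dividing cells in tumours 3 and 4, which were the tumours with the lower mitochondrial share of UMIs. The part of that share in the direction was not tested.

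Within the cell cycle no member was called. Between G2/M and S phase edgeR called 0 of 66 members, against 4.07% of 3146 genes, and DESeq2 called 0. Unadjusted p was under 0.05 for 4 members. The intervals of 63 of the 66 lay within 2-fold, against 2396 of 3146 genes, and the members' log2 folds ran from -0.67 to 0.51. The complex I quotient of G2/M over S was 0.89, 0.86, 0.97 and 0.96, below 1 in all 4 tumours, while that of complex II was 1.3, 1.5, 1.2 and 1.01. Summed over all members it was 0.92 (0.86 to 0.999), 0.88 (0.82 to 0.94), 1.01 (0.96 to 1.06) and 0.96 (0.93 to 0.99), so S-phase cells were slightly higher in tumours 1, 2 and 4. Intervals excluded 1 for complex I in tumour 2 (0.76 to 0.97), complex IV in tumour 1 (0.76 to 0.98) and complex V in tumours 2 (0.73 to 0.98) and 4 (0.89 to 0.999), and for complexes II and III in no tumour. That of complex IV in tumour 2 ended at 1.

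Between late and early neuronal cells edgeR also called 0 of 66 members, against 0.826% of all genes, DESeq2 called 0, and 4 members had an unadjusted p under 0.05. Here the precision was lower, since only 34 of the 66 intervals lay within 2-fold, against 1240 of 3146 over all genes. The lowest folds were those of Ndufb8 (log2 fold -0.90, SE 0.35, edgeR adjusted p = 0.33) and Ndufa2 (-0.78, SE 0.35, edgeR adjusted p = 0.43). In tumour 4 the late over early quotient was 0.78 (0.69 to 0.88) for complex I, 0.64 (0.48 to 0.85) for III, 0.80 (0.69 to 0.93) for IV and 0.83 (0.72 to 0.96) for V. In tumours 1 to 3 the quotients of these complexes lay between 0.89 and 1.09, with intervals that included 1.

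The quotient of non-dividing over dividing cells, summed over all members, was 1.21 (1.05 to 1.39), 1.11 (0.98 to 1.26), 0.96 (0.90 to 1.02) and 1.08 (1.03 to 1.13) in tumours 1 to 4. Intervals excluded 1 for complex IV in tumour 1 (1.39, 1.10 to 1.73) and for complex V in tumour 3 (0.86, 0.75 to 0.98) and tumour 4 (1.12, 1.03 to 1.22), where the directions differed. In non-dividing progenitor-marker cells 1 of 66 members was higher than in dividing cells (1.52%, against 1.78% of all genes) and 0 were lower, against 4.42% (6.2% in either direction). DESeq2 called 1 as well. That member was Cox7a2l, which encodes a factor that joins complexes III and IV into supercomplexes and is not a fixed subunit of complex IV. It stood at 158, 140, 343 and 363 CPM in non-dividing cells of tumours 1 to 4. In G2/M cells it stood at 73.04, 99.99, 186.4 and 144.2 CPM, and in S-phase cells at 60.1, 46.7, 89.2 and 137.6 CPM. All 4 tumours were higher in the non-dividing gate (log2 fold 1.30, SE 0.29, edgeR adjusted p = 0.00071). The non-dividing values rest on 3, 3, 16 and 27 UMIs. The call was lost without tumour 4 (log2 fold 1.24, edgeR adjusted p = 0.084), and over the alternatives the log2 fold ran from 0.97 to 1.36 and the adjusted p from 0.00041 to 0.66. The glial markers summed to 2006, 1816, 579 and 794 CPM in this gate of tumours 1 to 4, against 652, 855, 352 and 438 CPM in G2/M and 771, 804, 294 and 413 CPM in S-phase cells, so they were higher here in every tumour. Microglial markers (11) summed to 21.4 to 422 CPM there, against 22.8 to 150.2 CPM. There Gja1 and Gdf10 of the glial list and Csf1r, P2ry12 and Aif1 of the microglial list were at 0 in all 4 tumours, and 3 to 5 of the 9 glial markers had UMIs. The part of such cells in the result was not tested.

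The genes around the complexes were read from lists of assembly factors, the citric acid cycle, regulators and carriers. Between dividing and neuronal cells 24.8% of all 3146 genes were called higher and 22.7% lower. Of 42 assembly factors with a row, 7 passed the filter and 1 of them was higher in dividing cells. That was Ndufaf2, a complex I assembly factor, at 55.7, 111.5, 144.0 and 156.8 CPM in dividing and 49.8, 56.9, 51.0 and 56.4 CPM in neuronal cells, higher in all 4 tumours (log2 fold 1.11, SE 0.30, edgeR adjusted p = 0.0012). Without tumour 4 it was not called (0.93, edgeR adjusted p = 0.055). Of 10 citric acid cycle genes tested 0 were called, and of 10 regulators only 1 was deep enough to test and it was not called. Of 7 carriers, pores and uncouplers 1 was called: Slc25a5, an ADP/ATP carrier of proliferating cells, at 360, 331, 681 and 827 CPM in dividing and 280, 182, 331 and 352 CPM in neuronal cells. It was higher in all 4 tumours (log2 fold 1.09, SE 0.16, edgeR adjusted p = 1.5e-08). The highest fold among members was the 0.80 of Ndufa12. Slc25a4, the ADP/ATP carrier of heart, muscle and brain, named beside its paralog, was lower in dividing cells of all 4 tumours, but its log2 fold of -0.15 (SE 0.12, edgeR adjusted p = 0.27) was not called.

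Both subunits the symbols missed were tested. Ndufab1, the acyl carrier protein that is also a complex I subunit, stood at 75.4, 97.6, 334.7 and 357.8 CPM in dividing and 56.1, 45.5, 288.8 and 159.7 CPM in neuronal cells, higher in all 4 tumours (log2 fold 0.80, SE 0.23, edgeR adjusted p = 0.0022). Without tumour 4 it was not called (0.39, edgeR adjusted p = 0.32). Cyc1, the cytochrome c1 of complex III, had a log2 fold of -0.09 (SE 0.22, edgeR adjusted p = 0.76). Among the genes that are not enzyme subunits, Atp5s had 16 UMIs, Atp5sl 37 and Atp5l2 3 over all gated cells, too few to test.

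Of the 7 mitochondrially encoded subunits 4 were called higher in dividing cells, against 24.8% of all 3146 genes. mt-Nd1, a core subunit of complex I, stood at 7201, 6739, 2961 and 2937 CPM in dividing and 5270, 4473, 1996 and 2340 CPM in neuronal cells (log2 fold 0.54, SE 0.08, edgeR adjusted p = 5.6e-09). mt-Cytb, the cytochrome b of complex III, had a log2 fold of 0.35 (SE 0.08, edgeR adjusted p = 0.00015). Both were higher in dividing cells of all 4 tumours, those with a high and those with a low mitochondrial share. Of 62 ribosomal protein genes 58 were called higher in dividing cells, with a median log2 fold of 0.80 against 0.14 for the members.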

How the data were processed

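Drop-seq counts of 4 tumours were used. The deposited values are whole-number UMI counts per gene and cell barcode, which the authors did not normalize, per the files' values. Per the submitters' processing notes, STAR and the mm10 build were used. Per the labels' protocols, tissue was dissociated with papain and libraries followed Drop-seq protocol V3.1. Annotation, strand setting and barcode filter are not given in the sources used here. Cell names in another 6 tables (11203 cell columns) fit none of the labelled samples, and those tables were left out.

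Cells with 500 or more UMIs were gated by marker UMIs per 1000 UMIs: dividing at 8 or more G2/M and S markers and under 8 neuronal ones, neuronal at 8 or more with under 4 dividing ones (late at 4 or more late markers), non-dividing at 2 or more progenitor markers and under 4 dividing and 8 neuronal ones. Of 3222 cells 2199 were gated. No doublet caller was run, but 313 cells over both the dividing and the neuronal limit, 144 cells with 3 or more distinct markers of another cell type and 566 others were left out. The limits were set from the markers after their distributions were seen. Gated cells had medians of 738 to 974.5 UMIs per gate.

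Counts were summed per tumour and gate (at least 10 cells) and tested with edgeR 4.0.16 in R 4.3.3 (TMM, filterByExpr, quasi-likelihood test), with the tumour as a block because a tumour's sums come from 1 mouse. Their deviations from the gate means correlated with r of 0.21 to 0.82 within tumours (3235 genes). Gate markers were left out of counts of genes. P-values measure how the differences between gates varied over these 4 tumours, after each tumour's own level was taken out by the block. That spread was pooled over all gates, with no term for the library pairs. In simulated counts of the dividing and neuronal comparison (3152 genes, 200 changed) the step recovered 100% of 4-fold changes, 64.6% of 2-fold rises and 76.1% of 2-fold falls. Among its calls, 5.17% were of unchanged genes. The simulated counts had the same spread for every gene, no other differences between gates and far fewer changed genes than the data gave. These rates may therefore not hold for the data. DESeq2 1.42.0 was an alternative. Intervals of levels and of quotients are exact (Poisson, or Clopper-Pearson for quotients of counts) at 95%. SEs and 95% intervals of log2 folds are approximate, worked back from the fold and the F statistic of its edgeR test.

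Named were the 3 members with most UMIs per complex, called members, isoform sets, members that are not subunits, Ndufab1 and Cyc1, and the called genes of further lists with the largest folds. Others are said to be chosen for their values. Members and lists were chosen with earlier results of these data known. Alternatives varied the UMI minimum, the mitochondrial share, thinning, gate limits, libraries, scaling, filter and block.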

Additional observations from a re-analysis of the deposited data

How the results depend on the processing

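The count of members called between dividing and neuronal cells, 9 of 66 with all tumours (47.5% of all genes), was 5 of 57 with cells thinned to 500 UMIs (42.7%), 17 of 79 with no filter on low counts (17.8%), 16 of 71 with tumours 3 and 4 alone (42.1%) and 0 of 45 with tumours 1 and 2 alone (27.8%). With single tumours left out it ran from 2 of 66 without tumour 4 (35.8%) to 12 of 66 without tumour 1 (44.1%). Without the tumour as a replicate block it was 0 of 66 (23.2%). The share of members called was thus below that of all genes in each of these settings except with no filter (21.5%). For non-dividing against dividing cells the 1 call became 0 with 1000 or more UMIs per cell, with thinned cells, with tumours 1 and 2 alone and with no filter, and ran from 0 (without tumour 4) to 1 when single tumours were left out. The cause of these changes was not tested. Counts for G2/M against S and late against early stayed 0 in all alternatives run, and for the 10 called members 0 folds reversed, 44 lost their call and 114 kept it. Of the uncalled named genes, Uqcr10, Cox5a, Cox7a2, Ndufv3, Uqcr11 and Atp5c1 were called in 7, 3, 3, 2, 1 and 1 of their alternatives. Their sign was opposite to that over all tumours in 1, 1, 0, 0, 3 and 0 of these. Compared within each tumour and gate, 10 of 570 levels of complexes I to V moved by over 1.5 times, 7 of them with thinned cells and 5 of the 10 in complex II. With 1000 or more UMIs 4 sums, and with a mitochondrial share up to 10% 2 sums, fell under 10 cells and gave no level. Averaged over tumours, complex II in non-dividing cells was 557 CPM when thinned against 443, and Cycs in late cells was 14.6 CPM at 1000 or more UMIs and 46.0 when thinned against 23.2. No single value among the 40 sets of 4 tumours examined stood apart from the other 3 by the gap test used. Where the tumours fall into pairs that test can hardly flag a value, so no conclusion is drawn from it.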
